A study of Homo sapiens with 6 samples.

Results

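Cells pass from G2 into mitosis and out again on the products of a small set of genes, and 50 of these were followed here in OVCAR5 cells given the spirocyclic dimer SpiD7. The members were listed by name for their known roles in G2 and mitosis, with earlier results of these data known, and all 50 were found among the 29982 gene symbols of the deposited table. All 50 were also among the 13287 symbols with a mean of at least 1 FPKM (fragments mapped to a gene, scaled for transcript length and library size) that entered the tests. By role they comprised 10 kinases, cyclins and CDC25 phosphatases, 11 checkpoint and kinetochore genes, 9 kinesins, 7 condensin and chromosome genes, 10 genes of the spindle, the spindle midzone and cytokinesis, and 3 genes of protein destruction at anaphase. OVCAR5 is an established human ovarian cancer cell line, and every library came from it, with no genetic change and no step that synchronises the cell cycle described. The treated cells received SpiD7 at 10 µM for 2 h (2 libraries), 6 h (1 library) or 12 h (1 library), and the 2 control libraries received the vehicle DMSO, for which the labels give no duration. Nothing states that the replicates came from separate cultures, so the p-values measure the spread between these libraries, which may be technical.

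Entry into mitosis is driven by the kinase CDK1 bound to cyclin A or cyclin B, which CDC25 phosphatases switch on, and the kinases PLK1, AURKA and AURKB then order the assembly of the spindle and the attachment of chromosomes. Kinesins move and shape the spindle, condensin and topoisomerase II compact the chromosomes, and a checkpoint at the kinetochores holds back the anaphase-promoting complex (APC/C) until every chromosome is attached. Most of these genes are transcribed late in the cell cycle, from promoters whose CHR element binds the DREAM complex in resting cells and the MuvB complex with B-Myb and FOXM1 in cycling cells, often beside CCAAT boxes bound by NF-Y. Their summed RNA is therefore widely read as a measure of proliferation. In bulk RNA, fewer cells in G2 and mitosis and less RNA of these genes per cell cannot be told apart.

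The deposited values are FPKM, which do not hold the read depth of each library, so no counting interval can be given. The libraries of replicate 2 of DMSO and of 2 h were recovered from columns that behaved as the means of both libraries of a group. Across all tested genes the median log2 difference from DMSO replicate 1 lay between -0.06 and 0.00 in every library. The row of MIR6723, a microRNA gene, alone took 25% and 21.8% of the summed FPKM in the replicate 2 libraries of DMSO and 2 h and between 5.04% and 9.19% in the other 4. Of 10 epithelial and ovarian markers 8 reached a mean of 1 FPKM, with WT1 and MUC16 below it, and their summed level was 3171 to 4734 FPKM. The summed levels of 5 fibroblast markers were 3.25 to 7.12 FPKM, with COL1A2, COL3A1 and DCN below a mean of 1. The 5 immune markers summed to 4.51 to 7.51 FPKM in 5 libraries and to 13.5 FPKM at 12 h, with CD3E at 0 in every library and PTPRC and CD79A below a mean of 1. The 4 endothelial markers summed to 0.80 and 1.04 FPKM in the replicate 1 libraries of DMSO and 2 h. In the replicate 2 libraries they summed to 11.5 and 8.31 FPKM, nearly all of it PECAM1. At 6 h and 12 h they summed to 0.45 and 1.21 FPKM, near the replicate 1 libraries.

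The promoter sequences of 43 of the 50 members were taken from RefSeq (GRCh38.p14, 250 bases before and 50 bases after the annotated start), and AURKA, BUB3, TTK, TPX2, RACGAP1, BIRC5 and UBE2C were not matched. A CHR element, searched as TTTGAA or TTTAAA on both strands, occurred in 38 of the 43 (88.4%), against 24% of all 35116 promoters of the same length and 12% of 25 promoters of DNA replication genes. TTTGAA was found in 74.4% of the members and 15.2% of all promoters, and TTTAAA in 30.2% and 12.2%. CCAAT, again on both strands, occurred in 69.8% of the members and 34.6% of all promoters, and both elements together in 62.8% and 9.27%. The E-box CACGTG occurred in 11.6% of the members and 7.26% of all promoters. Each member and replication gene was counted by its first listed promoter only, whereas the set of all promoters was not reduced in this way. Within 60 bases of the annotated start, a window chosen after the positions were seen, 32 of the 43 members (74.4%) held a CHR element, against 8.27% of all promoters. CCNA2, CDC25B, CDC25C, AURKB and BUB1 held none of these letters in their 300 bases, which says nothing of other forms of the element. The motifs may overlap each other, as 2 CCAAT boxes on opposite strands do in PTTG1.

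The 6 members that the results below turn on are shown by the 250 bases before their annotated start, written 5′ to 3′ on the strand of the gene. CDK1, TOP2A, CENPF and CDC25B are the members more than 2-fold below each DMSO library at 12 h, and CDC20 and PTTG1 are members whose 12 h level lay between them. Capitals mark the CHR elements and CCAAT boxes on either strand, so that a CCAAT box of the opposite strand reads ATTGG.
CDK1 (chr10:60778081-60778330, plus strand): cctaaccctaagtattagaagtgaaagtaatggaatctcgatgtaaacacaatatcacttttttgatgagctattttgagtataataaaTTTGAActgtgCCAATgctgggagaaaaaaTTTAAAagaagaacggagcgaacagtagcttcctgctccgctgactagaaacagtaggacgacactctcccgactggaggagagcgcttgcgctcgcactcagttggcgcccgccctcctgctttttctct
TOP2A (chr17:40417897-40418146, minus strand): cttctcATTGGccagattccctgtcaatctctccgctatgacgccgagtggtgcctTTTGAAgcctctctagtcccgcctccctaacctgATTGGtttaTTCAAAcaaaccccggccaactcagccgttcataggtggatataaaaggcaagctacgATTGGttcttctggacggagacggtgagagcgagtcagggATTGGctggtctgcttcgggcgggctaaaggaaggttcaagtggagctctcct
CENPF (chr1:214602945-214603194, plus strand): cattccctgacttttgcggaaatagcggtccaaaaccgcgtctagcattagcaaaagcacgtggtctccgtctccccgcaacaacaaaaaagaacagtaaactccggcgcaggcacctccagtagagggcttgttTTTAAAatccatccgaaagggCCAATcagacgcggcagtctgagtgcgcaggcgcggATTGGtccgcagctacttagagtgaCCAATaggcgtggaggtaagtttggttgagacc
CDC25B (chr20:3786701-3786950, plus strand): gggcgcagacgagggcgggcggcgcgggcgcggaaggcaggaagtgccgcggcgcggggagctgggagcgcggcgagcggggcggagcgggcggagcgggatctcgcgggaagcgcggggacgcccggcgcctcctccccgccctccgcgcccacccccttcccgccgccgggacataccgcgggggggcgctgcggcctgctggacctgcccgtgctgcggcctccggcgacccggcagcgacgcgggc
CDC20 (chr1:43358731-43358980, plus strand): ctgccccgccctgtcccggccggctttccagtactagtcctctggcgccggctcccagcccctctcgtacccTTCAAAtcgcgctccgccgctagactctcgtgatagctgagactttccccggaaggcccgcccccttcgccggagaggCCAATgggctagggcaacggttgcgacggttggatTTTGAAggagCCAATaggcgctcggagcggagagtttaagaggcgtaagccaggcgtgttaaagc
PTTG1 (chr5:160421605-160421854, plus strand): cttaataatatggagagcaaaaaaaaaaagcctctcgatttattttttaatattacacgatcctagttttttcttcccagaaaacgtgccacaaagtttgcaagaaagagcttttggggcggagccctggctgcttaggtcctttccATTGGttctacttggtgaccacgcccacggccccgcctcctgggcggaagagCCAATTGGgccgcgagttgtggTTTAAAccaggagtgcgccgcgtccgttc
CDC25B has no capital in this stretch and none in the 50 bases after it, whereas CENPF has a further TTTGAA and a further CCAAT on the opposite strand after its start. The first base of the TTTAAA of PTTG1 lies 29 bases before the start and that of the nearer TTTGAA of CDC20 lies 65 bases before it.

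The vehicle libraries differed for these genes, so this difference is given before any effect of SpiD7. Members were about 2-fold lower in replicate 2 than in replicate 1, in the DMSO pair and in the 2 h pair alike. The summed FPKM of the 50 members was 4041 in DMSO replicate 1 and 1980 in DMSO replicate 2, and 4461 and 1912 in the same replicates at 2 h. All 50 were lower in both replicate 2 libraries than in both replicate 1 libraries, against 39.9% of all tested genes; with other scalings CDC25B turned the other way, in DMSO with median-ratio and in both groups with upper-quartile scaling. The median log2 difference between replicate 2 and replicate 1 was -0.998 in DMSO (range -1.55 to -0.07) and -1.17 at 2 h (range -1.83 to -0.11), where all tested genes had medians of -0.06 and -0.06. In a limma fit with group and replicate number as terms (2 libraries per number), 48 of 50 members were called lower in replicate 2 at an adjusted p under 0.05, against 16.1% of all tested genes called lower and 28.7% called in either direction. The median adjusted p of the members in limma was 0.037. With no filter on low values, limma called 0 of 22199 genes (7702 at an unadjusted p under 0.05), and the lowest adjusted p of a member became 0.095. Past 2-fold in both groups were 23 members, against 2.66% of all tested genes.

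UBE2C, the ubiquitin-conjugating enzyme of the APC/C, differed most between the replicates. Its FPKM was 347 and 119 in DMSO replicates 1 and 2, 395 and 111 at 2 h, 295 in the 6 h library and 108 in the 12 h library. The limma coefficient for replicate 2 was -1.69 ± 0.11 (SE, 2 groups, adjusted p = 0.037). Both replicate 2 libraries lay near the 12 h library for this gene. CENPA, the histone variant that marks centromeres, CDCA8, a subunit of the chromosomal passenger complex, and ANLN, a scaffold of the contractile ring, followed with coefficients of -1.52, -1.47 and -1.47 (limma adjusted p = 0.037 each). CDC25B, a phosphatase that activates CDK1, was the exception. It stood at 83.6 and 79.8 FPKM in DMSO and at 86.7 and 80.4 FPKM at 2 h, a coefficient of -0.09 ± 0.06 (limma adjusted p = 0.35), and its sign turned with upper-quartile scaling (0.04). CCNB2, cyclin B2, was the other member not called, at -0.58 ± 0.12 (limma adjusted p = 0.071).

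Over the 50 members, the replicate difference in DMSO and that at 2 h, which share no library, had a Pearson r of 0.901 and a Spearman rho of 0.82, against 0.369 and 0.837 over all 13287 genes. The points are genes of the same 4 libraries and are not independent replicates. The share of MIR6723 and the level of PECAM1 moved with the replicate number as well, and their part in the difference was not tested. With median-ratio scaling the members' medians were -0.92 and -1.10, so the difference was nearly as large when the libraries were scaled to their typical gene.

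**Figure D1:**
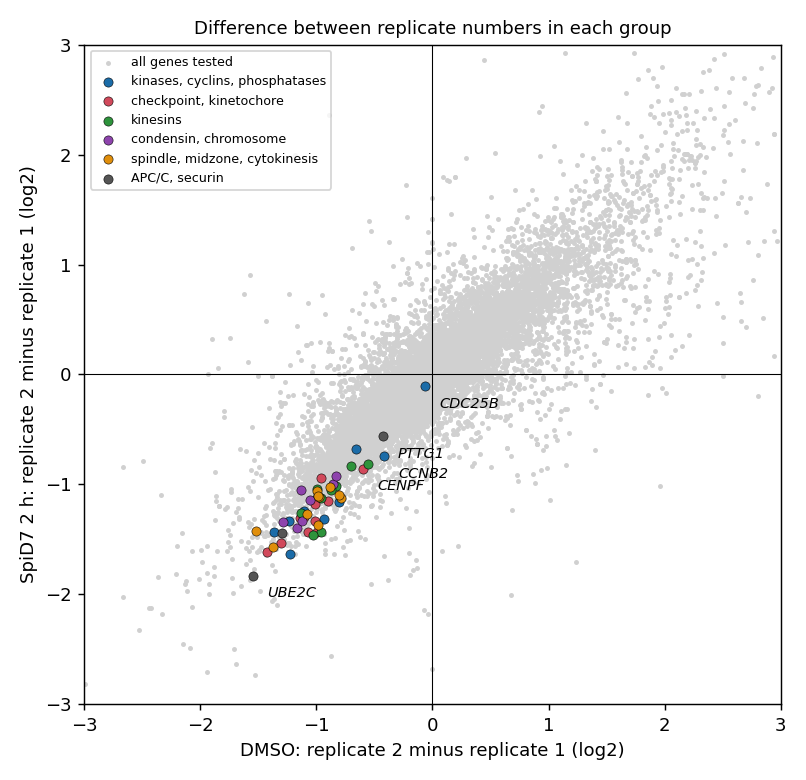
Log2 difference between replicate 2 and replicate 1 in DMSO (x axis) and after 2 h of SpiD7 (y axis), with 1 point per gene, grey for all 13287 tested genes and coloured by role for the 50 members. The members lie together in the lower left, between -1.55 and -0.07 on the x axis, with CDC25B next to the origin and UBE2C farthest from it; 278 genes beyond 3 on either axis are not drawn.

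After 2 h of SpiD7 no member was called as different from DMSO. The median log2 difference between the group means was 0.05, from -0.23 for MAD2L1, a spindle checkpoint protein, to 0.51 for KIF14, a kinesin of cytokinesis. limma (2 libraries per group) called 0 of 50 at an adjusted p under 0.05, against 0.0226% of all tested genes, and 0 of 50 at an unadjusted p under 0.05, against 2.84%. No member had both 2 h libraries above or both below the 2 DMSO libraries (13.7% and 8.1% of all tested genes). The replicate difference described above, shared by all 50, fixed this in advance, so it says nothing about SpiD7. Within the same replicate number, 19 members were higher in both pairs (31.5% of all tested genes) and 9 were lower in both (34.4%), and the medians of the pairs were 0.17 for replicate 1 and -0.04 for replicate 2.

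The members with the highest mean differences at 2 h included the kinesins KIF14 and KIF18A. KIF14 had 9.17 and 5.60 FPKM in DMSO and 13.7 and 7.68 FPKM at 2 h, and KIF18A, which dampens chromosome movement at metaphase, had 23.1 and 15.7 FPKM in DMSO and 34.9 and 19.8 FPKM at 2 h. Their log2 differences of 0.51 ± 0.44 and 0.46 ± 0.40 (SE) were not called (limma adjusted p = 1 for both). Within replicates 1 and 2, KIF14 was higher at 2 h by 0.58 and 0.45 and KIF18A by 0.59 and 0.33. The 9 members lower in both pairs were CCNA2, BUB3, MAD2L1, NCAPD2, NCAPH, SMC2, MKI67, BIRC5 and INCENP. The standard error of the 2 h difference had a median of 0.61 over the members in this fit, which has no term for the replicate number and so holds the replicate difference described above.

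At 6 h the single library lay between the vehicle libraries for nearly every member, and its direction depended on which of them it was set against. The summed FPKM of the members was 3286. Against DMSO replicate 1 the median log2 difference was -0.32 and 47 of 50 members were lower, with 0 past 2-fold lower (0.993% of all tested genes). Against DMSO replicate 2 the median was 0.69 and 49 of 50 were higher, with 7 past 2-fold higher, namely CENPA, KIF20B, NCAPG, ANLN, CDCA8, CDC20 and UBE2C (7.76% of all tested genes). Between the DMSO libraries lay 46 members, against 38.4% of all tested genes. Only CDC25B was below both (2 members with median-ratio or upper-quartile scaling; 29.2% of all tested genes), and KIF14, NCAPG and PTTG1 were above both (31.6%). With 1 library at 6 h, no difference at this time has a replicate check.

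At 12 h the members were lower than at 6 h throughout, and most were lower than in any other library. The summed FPKM of the members was 1562, the lowest of the 6 libraries. All 50 were lower at 12 h than at 6 h, against 56.7% of all tested genes, with a median log2 difference of -1.14 and 33 past 2-fold lower (2.04% of all tested genes). In 40 of 50 the 12 h library was the lowest of all 6, against 24.5% of all tested genes. Against DMSO replicate 1 all 50 were lower with a median of -1.46, and 44 were past 2-fold (4.03% of all tested genes). The other 6 were BUB3, SMC4, RACGAP1, BIRC5, CDC20 and PTTG1.

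Against DMSO replicate 2 the same library gave a smaller difference. The median was -0.49, 42 members were lower, and 4 were past 2-fold, namely CDK1, CDC25B, CENPF and TOP2A. That is 8% of the members, near the 7.56% of all tested genes. These 4 were the members past 2-fold against each DMSO library (0.993% of all tested genes). Below both DMSO libraries lay 42 members (35.6% of all tested genes), and the other 8 lay between them (33.5%): BUB3, SMC4, RACGAP1, ANLN, BIRC5, CDCA8, CDC20 and PTTG1. Against replicate 2 at 2 h, 41 were lower (51.6% of all tested genes), and the same 4 genes were past 2-fold lower (8%, near the 6.38% of all tested genes). Median-ratio and upper-quartile scaling left these 4 genes and these 8 genes as they were. The 12 h difference has no replicate check. The immune markers CD14 and LYZ were highest in the 12 h library, at 9.36 and 3.70 FPKM, against 3.10 to 5.67 FPKM and 0.96 to 1.85 FPKM in the other 5, while PTPRC was at most 0.03 FPKM and CD3E was at 0. Their part in the members' 12 h values was not tested.

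**Figure D2:**
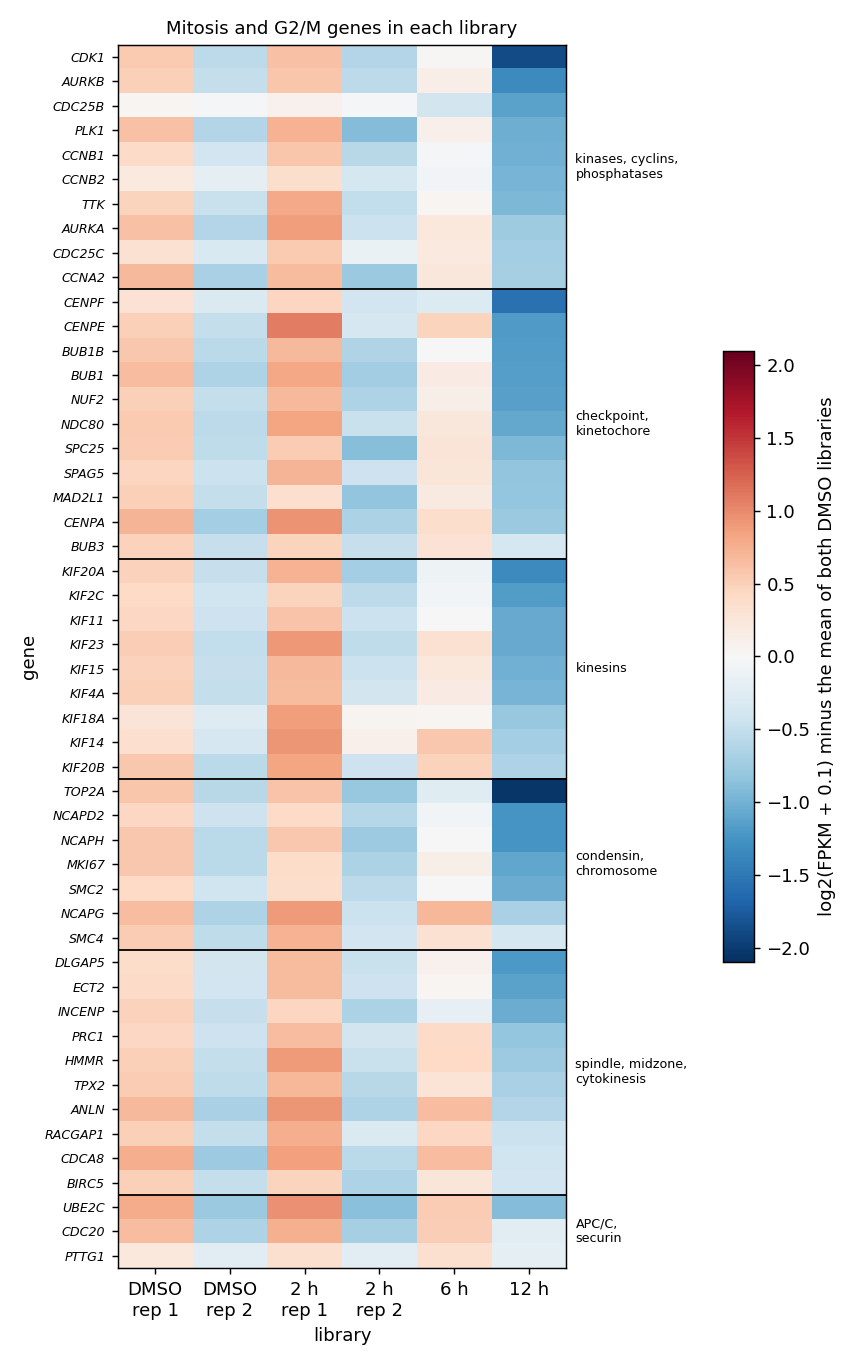
Log2(FPKM + 0.1) of each of the 50 members in each of the 6 libraries, as the difference from the mean of both DMSO libraries (red higher, blue lower), with genes grouped by role and ordered within a role by their 12 h value. The replicate 1 libraries of DMSO and 2 h are red and the replicate 2 libraries blue for nearly every gene, and the 12 h column holds the darkest blue, at CDK1 and TOP2A.

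A straight line of log2 level on hours of exposure, fitted by limma over the 6 libraries with DMSO at 0 h, had a negative slope in all 50 members, against 53.7% of all tested genes. None was called at an adjusted p under 0.05, and neither was any other gene (0%), while 15.4% of all tested genes had an unadjusted p under 0.05. Among the 50 members 5 had an unadjusted p under 0.05, all falling: CDK1, CCNB2, CDC25B, CENPF and TOP2A. That share was near the 8.09% of all tested genes that fell at this threshold. CDC25B had the lowest adjusted p, with a slope of -0.10 ± 0.02 log2 units per hour (SE, limma adjusted p = 0.17). The steepest slope was that of TOP2A, at -0.16 ± 0.06 per hour (limma adjusted p = 0.29), and the slope of CDK1 was -0.14 ± 0.06 (limma adjusted p = 0.32). Without the 12 h library the median slope of the members turned from -0.08 to 0.03, and 11 of 50 slopes were negative, so most of the negative slopes rest on that library. With the replicate 1 libraries of DMSO and 2 h and the single 6 h and 12 h libraries, a fit chosen after seeing the data, the median slope was -0.13 and 48 members fell at an unadjusted p under 0.05 (against 19.2% of all tested genes), but limma again called none (lowest adjusted p = 0.10).

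**Figure D3:**
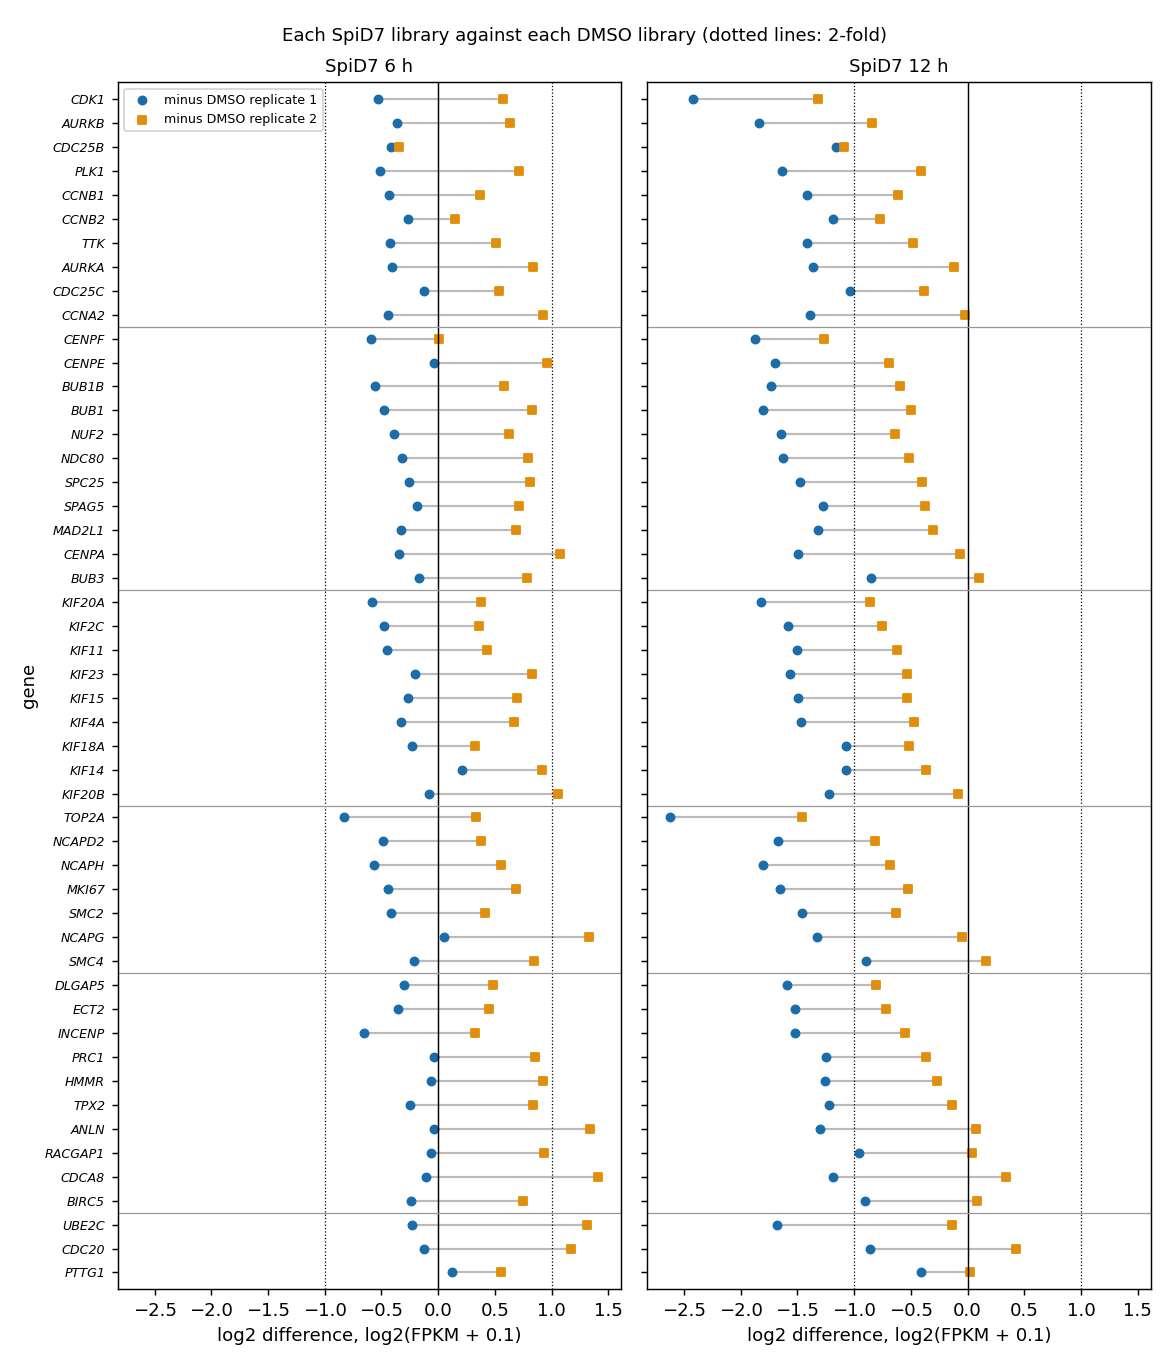
Log2 difference of the 6 h library (left) and the 12 h library (right) from DMSO replicate 1 (blue circles) and DMSO replicate 2 (orange squares) for each member, with dotted lines at 2-fold. At 6 h the symbols of a gene fall on opposite sides of 0 in 46 genes, and at 12 h both fall beyond the left dotted line only in CDK1, CDC25B, CENPF and TOP2A.

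Among the kinases, cyclins and phosphatases all 10 were more than 2-fold below DMSO replicate 1 at 12 h and all 10 were below DMSO replicate 2 as well, with medians of -1.40 and -0.55. CDK1, the kinase that drives mitotic entry, had the lowest 12 h differences of the group. It was at 105 and 49.0 FPKM in DMSO, 111 and 46.7 FPKM at 2 h, 73.0 FPKM at 6 h and 19.6 FPKM at 12 h. The 12 h level was thus 5.36-fold below DMSO replicate 1, 2.5-fold below replicate 2 and 3.72-fold below the 6 h library. CDC25B stood at 62.8 FPKM at 6 h and 37.4 FPKM at 12 h, against 79.8 to 86.7 FPKM in the other 4 libraries. It was therefore the member whose 12 h difference depended least on the choice of vehicle, 2.23-fold and 2.13-fold below DMSO replicates 1 and 2.

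CCNB1, cyclin B1, the main partner of CDK1 in mitosis, was the most abundant of this group, with 136 and 78.0 FPKM in DMSO, 154 and 68.9 FPKM at 2 h, 101 FPKM at 6 h and 50.9 FPKM at 12 h. AURKB, the catalytic kinase of the chromosomal passenger complex, had 73.0 and 36.5 FPKM in DMSO, 77.1 and 35.3 FPKM at 2 h, 56.7 FPKM at 6 h and 20.4 FPKM at 12 h. Both were lowest at 12 h, with log2 differences from DMSO replicate 2 of -0.61 and -0.84. CCNA2, cyclin A2, which acts from S phase on, was the member of the group nearest to DMSO replicate 2, with 56.7 and 22.0 FPKM in DMSO, 55.8 and 20.6 FPKM at 2 h, 41.8 FPKM at 6 h and 21.6 FPKM at 12 h. PLK1, which promotes spindle assembly and mitotic exit, had 12 h differences of -1.63 and -0.41 from the DMSO libraries, and AURKA, which acts at spindle poles, -1.36 and -0.12. The libraries kept no strand, so reads of a member cannot be told apart from those of a gene with exons on the opposite strand. This held for CCNA2 (EXOSC9), CDC25C (FAM53C) and PLK1 (ERN2 and AC008870.3) in this group.

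The checkpoint and kinetochore genes had 12 h medians of -1.62 and -0.50 against the DMSO libraries, with 10 of 11 more than 2-fold below replicate 1 and 10 of 11 below replicate 2. CENPF, a large kinetochore and nuclear matrix protein, was the lowest. It had 33.5 and 22.0 FPKM in DMSO, 37.2 and 20.5 FPKM at 2 h, 22.2 FPKM at 6 h and 9.09 FPKM at 12 h. Its 12 h level was 3.66-fold below DMSO replicate 1 and 2.41-fold below replicate 2. NDC80, the microtubule-binding core of the outer kinetochore, was the most abundant, with 127 and 58.8 FPKM in DMSO, 154 and 62.6 FPKM at 2 h, 102 FPKM at 6 h and 41.1 FPKM at 12 h. Its partners NUF2 and SPC25 had 12 h differences of -1.65 and -1.47 from replicate 1 and of -0.64 and -0.40 from replicate 2, beside -1.62 and -0.52 for NDC80. Exons of MAD2L1, NUF2 and SPAG5 overlap those of AC108866.1, RGS5 and SPAG5-AS1 on the opposite strand. BUB1, a checkpoint kinase at kinetochores, had 73.6 and 29.7 FPKM in DMSO, 81.9 and 28.3 FPKM at 2 h, 52.8 FPKM at 6 h and 21.0 FPKM at 12 h. BUB3, which recruits BUB1 to kinetochores, was the highest of the group at 12 h and lay between the vehicle libraries, with 120 and 61.8 FPKM in DMSO, 119 and 61.7 FPKM at 2 h, 107 FPKM at 6 h and 66.4 FPKM at 12 h.

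All 9 kinesins were more than 2-fold below DMSO replicate 1 at 12 h, all 9 were below replicate 2 though none by 2-fold, and in all 9 the 12 h library was the lowest of the 6. Their 12 h medians were -1.50 and -0.53. KIF23, a midzone kinesin needed for cytokinesis, was the most abundant, with 59.1 and 28.9 FPKM in DMSO, 78.1 and 28.4 FPKM at 2 h, 51.3 FPKM at 6 h and 19.9 FPKM at 12 h. KIF20A, which carries the chromosomal passenger complex to the midzone, was the lowest relative to the vehicle, with 63.9 and 32.8 FPKM in DMSO, 75.6 and 27.9 FPKM at 2 h, 42.6 FPKM at 6 h and 18.0 FPKM at 12 h. KIF20B, another midzone kinesin, was the highest relative to the mean of both vehicle libraries, with 12 h differences of -1.22 and -0.08. KIF11, the bipolar spindle motor, KIF2C, a microtubule depolymerase, and KIF4A, a chromosome-bound motor, had differences of -1.50, -1.58 and -1.47 from replicate 1 and of -0.62, -0.75 and -0.47 from replicate 2. KIF4B, a near-identical copy of KIF4A, was at most 0.05 FPKM in any library. Opposite-strand exons overlap KIF20A (BRD8 and CDC23), KIF2C (AL592166.1), KIF4A (PDZD11), KIF18A (METTL15) and KIF23 (AC027237.3).

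The condensin and chromosome genes had the widest spread at 12 h, from -2.62 for TOP2A to -0.89 for SMC4 against DMSO replicate 1, with a median of -1.65, and a median of -0.63 against replicate 2. TOP2A, topoisomerase II alpha, which untangles sister DNA, was the most abundant of this group and had the lowest 12 h difference of all 50 members from either DMSO library. It had 287 and 128 FPKM in DMSO, 290 and 110 FPKM at 2 h, 161 FPKM at 6 h and 46.5 FPKM at 12 h. The 12 h level was 6.16-fold below DMSO replicate 1, 2.74-fold below replicate 2 and 3.46-fold below the 6 h library, and TOP2A was also the member with the lowest 6 h difference from DMSO replicate 1 (-0.83). MKI67, the Ki-67 protein that coats mitotic chromosomes, had 66.5 and 30.3 FPKM in DMSO, 58.7 and 28.2 FPKM at 2 h, 48.9 FPKM at 6 h and 21.1 FPKM at 12 h.

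The condensin subunits differed among themselves at 12 h. SMC4, the ATPase subunit shared by both condensins, lay between the vehicle libraries at 12 h, with 118 and 56.6 FPKM in DMSO, 136 and 61.5 FPKM at 2 h, 102 FPKM at 6 h and 63.3 FPKM at 12 h. Its ATPase partner SMC2 was below both, at 8.24 FPKM against 22.9 and 12.8 FPKM in DMSO. The condensin I subunits NCAPD2, NCAPH and NCAPG had 12 h differences from DMSO replicate 2 of -0.81, -0.68 and -0.04. SMC4 overlaps exons of IFT80 and TRIM59 on the opposite strand, and NCAPD2 and NCAPG overlap exons of MRPL51 and LCORL.

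The 10 genes of the spindle, midzone and cytokinesis had 12 h medians of -1.25 and -0.20, with 8 more than 2-fold below DMSO replicate 1 and 6 below replicate 2. TPX2, an activator of AURKA at the spindle, was the most abundant, with 156 and 73.8 FPKM in DMSO, 174 and 71.9 FPKM at 2 h, 131 FPKM at 6 h and 67.0 FPKM at 12 h. DLGAP5, a spindle microtubule stabiliser, was the lowest relative to the vehicle, with 59.4 and 34.4 FPKM in DMSO, 71.6 and 32.8 FPKM at 2 h, 48.1 FPKM at 6 h and 19.7 FPKM at 12 h. BIRC5, survivin, was the highest relative to the mean of both vehicle libraries, with 121 and 61.2 FPKM in DMSO, 119 and 55.0 FPKM at 2 h, 103 FPKM at 6 h and 64.9 FPKM at 12 h. Survivin forms the chromosomal passenger complex with AURKB, INCENP and CDCA8, and these differed at 12 h from DMSO replicate 2 by 0.09 for BIRC5, -0.84 for AURKB, -0.55 for INCENP and 0.34 for CDCA8. ECT2 and RACGAP1, which together set the cleavage plane, stood at -0.72 and 0.04 in the same comparison, and ANLN at 0.07. Opposite-strand exons overlap HMMR (HMMR-AS1), PRC1 (PRC1-AS1), RACGAP1 (AQP6) and ANLN (KIAA0895).

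The 3 genes of protein destruction at anaphase had the highest 12 h median differences of the 6 groups, of -0.86 against DMSO replicate 1 and 0.02 against replicate 2. CDC20, the APC/C activator that the checkpoint restrains, had 242 and 98.6 FPKM in DMSO, 259 and 95.5 FPKM at 2 h, 222 FPKM at 6 h and 133 FPKM at 12 h. At 0.43 it had the highest 12 h difference from DMSO replicate 2 of all 50 members. PTTG1, securin, the inhibitor of separase, varied least of the 3, with 166 and 123 FPKM in DMSO, 180 and 122 FPKM at 2 h, 181 FPKM at 6 h and 125 FPKM at 12 h. Its 12 h level was 1.33-fold below DMSO replicate 1 and close to both replicate 2 libraries. UBE2C, described above, was 3.21-fold below DMSO replicate 1 at 12 h and 1.1-fold below replicate 2.

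**Figure D4:**
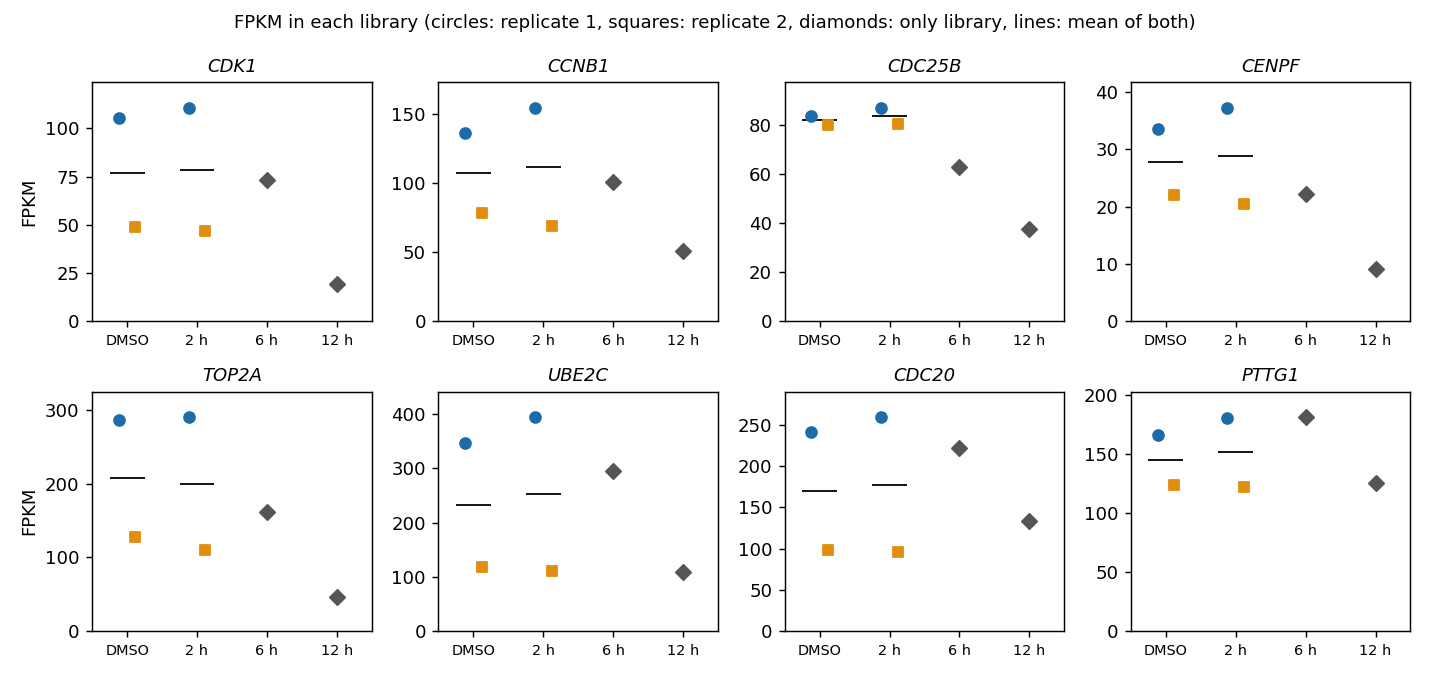
FPKM of 8 members in each library, on axes that start at 0, with circles for replicate 1, squares for replicate 2, diamonds for the single 6 h and 12 h libraries and lines for the mean of both replicates. In CDK1, CDC25B, CENPF and TOP2A the 12 h library lies more than 2-fold below each DMSO library, in UBE2C it lies next to the replicate 2 libraries, and in CDC20 and PTTG1 it lies above the DMSO replicate 2 library.

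Members with and without the CHR letters had overlapping 12 h differences. The 5 members without a CHR element in the bases searched had 12 h differences from DMSO replicate 1 within the range of the others. These were -1.84 (AURKB, whose window lay inside the gene), -1.80 (BUB1), -1.39 (CCNA2), -1.16 (CDC25B) and -1.04 (CDC25C). CDC25B and CDC25C also lacked CCAAT, and their replicate differences in DMSO were -0.07 and -0.66. Between these values lay CCNB2 and PTTG1, at -0.415 and -0.43, which held both elements. A link between the elements and the replicate difference was not tested. TOP2A and CDC20, with the lowest and the highest 12 h difference from DMSO replicate 2, each held 2 CHR elements.

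The known regulators of these genes had 12 h medians nearer to 0. In this list and those that follow, counts called lower in replicate 2 stand against 16.1% of all tested genes and counts below both DMSO libraries at 12 h against 35.6%, and the highest and lowest gene of a list are those by the difference from the mean of both DMSO libraries. Of 18 genes of the DREAM, B-Myb and FOXM1 regulators, 9 (50%) were called lower in replicate 2 (limma, adjusted p under 0.05), and the 12 h medians were -0.49 and 0.00 against the DMSO libraries, with 8 (44.4%) below both. FOXM1 and MYBL2, named for their known role after their values were seen, had 59.9 and 96.3 FPKM in DMSO replicate 1, 25.1 and 46.4 FPKM in replicate 2 and 27.0 and 47.2 FPKM at 12 h. CDKN1A, the p21 inhibitor of cyclin-dependent kinases, was the highest of the list at 12 h, with 2.71 and 11.1 FPKM in DMSO, 16.7 and 23.1 FPKM at 2 h, 37.7 FPKM at 6 h and 24.1 FPKM at 12 h. RBL2, the p130 subunit of DREAM, was the lowest, with 11.2 and 15.9 FPKM in DMSO, 12.2 and 15.9 FPKM at 2 h, 8.34 FPKM at 6 h and 6.48 FPKM at 12 h. Among 12 regulators of CDK1 activity, 6 (50%) were called lower in replicate 2, and the 12 h medians were -0.66 and -0.13, with 7 (58.3%) below both. CDC25A, which acts mainly on CDK2 in S phase, was the highest of them at 12 h (0.46 and 1.35) and CCNF, cyclin F, the lowest (-1.89 and -0.60).

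The lists of other mitotic genes and of DNA replication genes had replicate differences near those of the members and 12 h medians nearer to 0. Of 49 other mitotic genes, 41 (83.7%) were called lower in replicate 2, and the 12 h medians were -1.24 and -0.27, with 36 (73.5%) below both. CKAP2L, a spindle protein, was lowest (-1.83 and -1.10) and MIS12, a kinetochore protein, highest (0.30 and 0.20). Of 30 DNA replication genes, 25 (83.3%) were called lower in replicate 2, and their median replicate differences were -0.95 in DMSO and -0.88 at 2 h. At 12 h their medians were -0.87 against DMSO replicate 1, 0.10 against replicate 2 and -0.52 against the 6 h library, beside -1.46, -0.49 and -1.14 for the members. Below both DMSO libraries lay 9 of the 30 (30%), near the share of all tested genes, beside 42 of the 50 members. CCNE1, cyclin E1, was the highest of that list at 12 h (1.23 and 1.46) and GINS1, a subunit of the replicative helicase, the lowest (-1.54 and -0.49). Of 17 APC/C subunits and partners, 4 (23.5%) were called lower in replicate 2, and the 12 h medians were -0.35 and -0.09, with CDC26 highest (0.56 and 0.51) and ANAPC13 lowest (-0.75 and -0.71). The differences between these lists and the members were not tested.

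**Figure D5:**
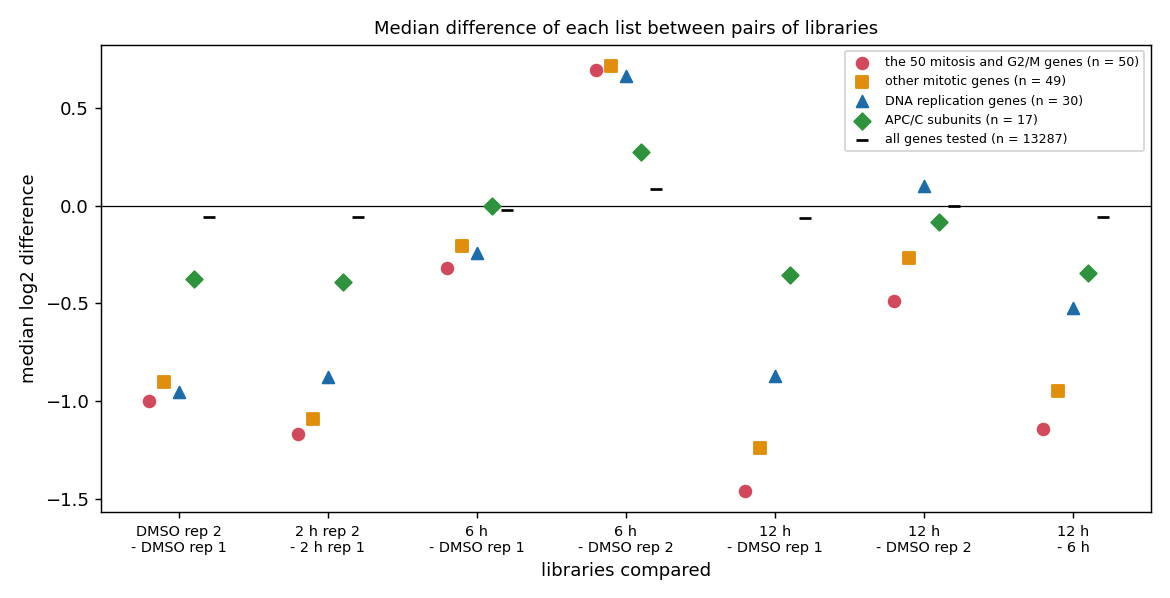
Median log2 difference of 5 sets of genes between pairs of libraries, with red circles for the 50 members, orange squares for 49 other mitotic genes, blue triangles for 30 DNA replication genes, green diamonds for 17 APC/C genes and black bars for all tested genes. The members and the DNA replication genes lie close together between replicates in DMSO (-0.998 and -0.952) and apart between the 12 h and 6 h libraries (-1.14 and -0.52).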

How the data were processed

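RNA of OVCAR5 cells was sequenced from unstranded TruSeq libraries. The authors deposited FPKM values for 4 pairwise comparisons, which the submitters' processing notes tie to Trim Galore, TopHat2 2.0.8, Cufflinks 2.1.1 and Cuffdiff 2.1.1 (builds hg38 and GRCm38 are both named). Their columns of log2 fold change, p-value and q-value were not used, and 1 row without a gene name was left out. The columns of the second comparison behaved as means of both libraries. Near its low end, their ratio to library 1 gathered at 0.526 (DMSO, 810 rows) and 0.509 (2 h, 958 rows). Whether rows fell below these values was not recorded. Replicate 2 was recovered as what remained after that share of library 1, with equal weights for both libraries. Remainders under 0.2% of the mean, negative ones included, were taken as 0. Another weight would multiply a whole library by 1 factor. The deposited comparisons set the 6 h and 12 h libraries against DMSO replicate 1 only. Their columns were brought to the first comparison through that library (factors 0.972 and 0.994). Rows of a symbol were summed, genes with a mean of at least 1 FPKM kept (13287), and log2(FPKM + 0.1) tested with limma 3.58.1 in R 4.3.3 over all of them, with Benjamini-Hochberg adjustment and a threshold of 0.05. Fold changes are on that scale. The fits were tested on simulated data. Those for the 2 h and exposure fits held no difference between replicate numbers, so the one seen here was not covered. Named were 10 genes fixed by name, the most abundant, highest and lowest at 12 h of each role, members called or past 2-fold against each DMSO library, and the highest and lowest of the other lists. Members and lists were chosen with earlier results of these data known. Gene positions and opposite-strand exons came from GENCODE 29 (GRCh38). The alternatives changed pseudocount, filter, scaling, row choice, test and libraries.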

Additional observations from a re-analysis of the deposited data

How the results depend on the processing

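The members' median differences from the mean of both DMSO libraries were 0.19 at 6 h and -0.97 at 12 h. Both kept their direction, within 1 SD, under the other pseudocounts, filters, scalings and row choice. That SD was taken over only 2 values, the medians against DMSO replicates 1 and 2, so staying within it is a weak check. Leaving out either DMSO library gave -0.32 to 0.69 at 6 h and -1.46 to -0.49 at 12 h. The count of members more than 2-fold lower at 12 h was 4 against each DMSO library, 44 against replicate 1 alone and 30 against the authors' mean column. At 2 h the median of 0.05 ranged from -0.54 to 0.67 when 1 of the 4 libraries was left out, and MAD2L1 ran from -0.823 to 0.359. No member was called at 2 h under any alternative. Of all genes, 3 were called at 2 h, 1 with a pseudocount of 1 and 6 with 0.01, 0 without a filter, 1 with median-ratio and 1 with upper-quartile scaling, 5 with an intensity trend, and 0 to 21 with 1 library left out. The labels do not state that replicate numbers pair the libraries, though the deposited comparisons name same-numbered DMSO and 2 h libraries together. Deviations of same-numbered libraries correlated over all genes (Pearson r = 0.369, Spearman rho = 0.837). The main 2 h fit had no term for the replicate number and so did not use such a pairing. With a replicate block, 0 genes were called at 2 h, the median standard error of a member was 0.0834 and 2 members, KIF14 and KIF18A, had an unadjusted p under 0.05 (14.1% of all genes), with a lowest adjusted p of 0.33 (limma). The exposure slope called 0 genes, 6 with a pseudocount of 1 and 2 on the order of the time points, and no member under any. Its median of -0.08 ranged from -0.104 to 0.0323 when 1 library was left out, and the slope of CDK1 from -0.182 to 0.00401, both highest without the 12 h library. It was -0.131 with the 4 libraries other than replicate 2. Median replicate difference was -0.97 with upper-quartile scaling against -1.10. Without a filter the replicate fit called 0 genes and 0 members against 3819 and 48, and the cause was not tested; PTTG1 and CENPF also lost their calls under other scalings (adjusted p 0.051 to 0.064, limma), PTTG1 with a pseudocount of 0.01, and CCNB2 gained one with an intensity trend. CDC25B turned to 0.0418 with upper-quartile scaling. The FPKM values carry no depth, and 6 h and 12 h have 1 library each, which limits every statement at those times.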
